A study of Arabidopsis thaliana with 8 samples.

Results

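Plates TA37 to TA51 form the longest stretch of consecutive plates with a low ratio in a ChIP-chip profile of dimethylated lysine 4 of histone H3 (H3K4me2) on Arabidopsis thaliana chromosome 4. A probe's name gives its plate and its well on that plate, as in TA37C01 for row C, well 01 of plate TA37, with 96 wells to a plate. The stretch was taken as all probes of the TA series on plates 37 to 51 with a value in every column. It holds 1342 of 21295 valued probes. These plates were chosen by the measured ratios themselves: each has a plate median under -1 in all 4 replicates. The level of the stretch is therefore described below and not tested.

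The material was whole seedlings grown for 10 days in liquid medium without treatment. The source names call it ColxC24, a hybrid of the accessions Col-0 and C24, whereas the strain field gives only c24; the source names were followed. They were also followed for the channels, since a tag for input DNA is set on Cy5 in all 8 samples, whichever DNA the source name puts there. Each of 4 replicates, I to IV, was hybridised on a pair of arrays as a dye swap of immunoprecipitated DNA (IP, antibody to H3K4me2) and input DNA. Both columns of a swap hold identical values, so n = 4. The series has this 1 group and no other genotype or treatment. Whether the replicates are separate plants or chromatin preparations is not said in the labels, so the spread between them may be technical. Since whole seedlings were used, a lower ratio in every cell and a mixture of cells with and without the mark cannot be told apart.

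H3K4me2 is laid down by SET-domain methyltransferases on nucleosomes of genes, mostly in their transcribed parts, and is known as a mark of euchromatin that is scarce over silent transposons. Pericentromeres are the regions that flank the centromere. In Arabidopsis they are rich in transposons, carry dense DNA methylation and dimethylation of lysine 9 of histone H3, and hold scattered active genes. A working label of the stretch as pericentromere-like rests on the order of probe IDs alone: no gene, position or sequence was paired with the probes here, so the label was not checked and the stretch is called by its plates.

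The deposited values are log ratios of the IP and input channels, taken as log2. Neither the logarithm's base nor the ratio's direction is stated in the sources used here, so "above" and "below" follow the sign as deposited and would change places if it were turned. Every value below is a ratio minus the median of all valued probes in the same replicate, so that 0 is the median probe. Those medians were -0.69, -0.23, -0.76 and -0.33 as deposited in I to IV. Over all probes outside the stretch replicate I correlated with III at a Pearson correlation of 0.987, replicate II with IV at 0.986, and the remaining pairs at 0.938 to 0.943. The replicates thus resemble each other in pairs that no label names, and any p-value that takes them as independent is too small if these pairs are not.

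The ratio over plates TA37 to TA51 was low throughout. Its median over 1342 probes was -2.25, -1.99, -2.21 and -1.94 in replicates I to IV. All 4 medians lay close to -2.10 ± 0.16 (SD, n = 4), with I and III lower than II and IV. Over all probes, too, the columns of I and III were wider, with SDs of 1.41 and 1.39 against 1.32 and 1.34 in II and IV. Ratios were centred and not scaled. After quantile normalization, which gives all columns the same distribution, the median was -2.10 ± 0.04. Whether column width sets the order of the replicates was not tested. The upper quartile was still -1.41 ± 0.11 and the 95th percentile -0.14 ± 0.03, so that nearly all probes lay under the median probe. The lower quartile was -2.67 ± 0.13 and the 5th percentile -3.31 ± 0.12. The distribution was thus drawn out upwards: its 95th percentile stood farther from its median than its 5th percentile did.

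Counts of probes say the same. Of the members, 1270 (94.6%) lay below 0 in all 4 replicates, 40 (2.98%) lay above 0 in all 4, and 32 had both signs; over all 21295 probes 43.2% lay below and 43.1% above in all 4. In limma's test against the median probe (adjusted p under 0.05 over 21295 probes), 1264 members were called below, where 42.3% of all probes were, and 39 above, where 42.1% of all probes were. By limma's treat, which asks for more than 0.5 of distance from 0, 1195 were below, where the share of all probes was 30.6%, and 15 above, where it was 28.1%. The remaining 132 passed in neither direction. These calls use the contrast that chose the plates and are descriptions. A mean ratio under -1 was found at 1147 members (85.5%), under -2 at 734 (54.7%) and under -3 at 158 (11.8%); over all probes these shares were 25.2%, 12.1% and 3.01%.

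**Figure D1:**
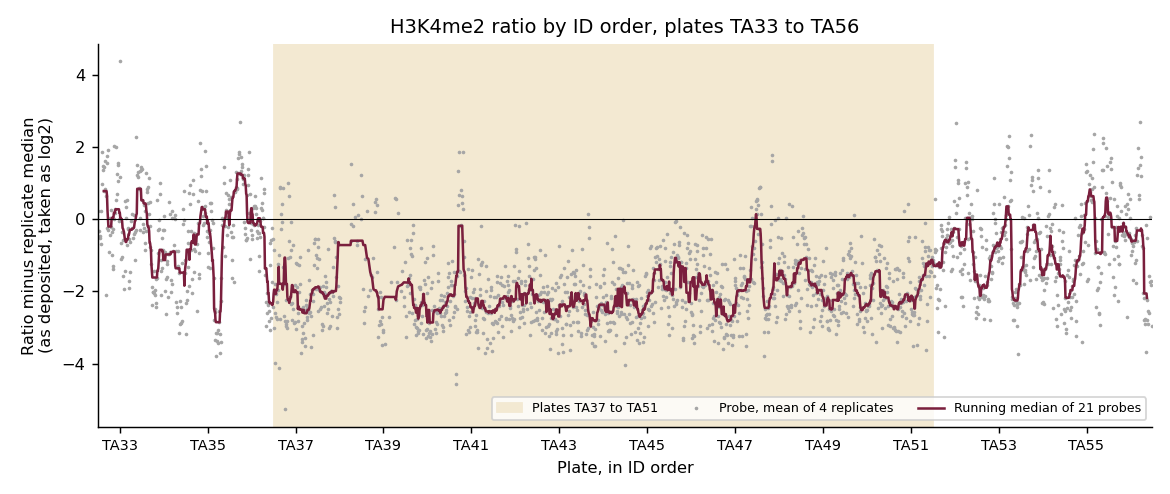
Mean ratio of each probe over 4 replicates (points, minus the replicate median, taken as log2) and the running median of 21 probes (line) against ID order on plates TA33 to TA56; plates TA37 to TA51 are shaded. Over the shaded plates, where 56 of 1342 probes lie above 0, the line stays near -2 for most of the way, rises towards 0 on TA38, TA41 and TA48, and it drops before the shading begins, within TA36.

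The plate medians covered a limited range. The lowest was TA44, with medians of -2.58, -2.35, -2.63 and -2.11 in I to IV and a mean of -2.42 ± 0.24 (SD, n = 4). TA43 followed at -2.39 ± 0.09 and TA40 at -2.36 ± 0.10. Given these SDs, the 3 lowest plates do not differ beyond their spread. At the upper end stood TA48, with -1.70, -1.70, -1.69 and -1.48, a mean of -1.64 ± 0.11, and TA46, with -1.83, -1.65, -1.86 and -1.46, a mean of -1.70 ± 0.18. These neighbours in the order do not differ beyond their spread either, but every replicate of TA48 and of TA46 was above the same replicate of TA43. The other 10 plates had mean medians between -2.23 and -1.92. The order of the 15 plates was alike in like replicates, with a Spearman correlation of 0.857 for I with III and of 0.907 for II with IV, and less so across them, down to 0.668 between III and IV (15 plates of the same arrays, given as a description).

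Plates at the bound show how the rule cut the stretch. Just outside, TA36 had medians of 0.01, -0.03, -0.02 and 0.06, and TA52 had -0.83, -0.70, -0.77 and -0.55. Just inside, TA37 stood at -2.45, -2.02, -2.27 and -2.04 and TA51 at -2.30, -2.0, -1.99 and -1.83. TA53, at -1.07, -1.14, -1.02 and -1.12, passed the bound of -1 too but is cut off from the stretch by TA52.

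**Figure D2:**
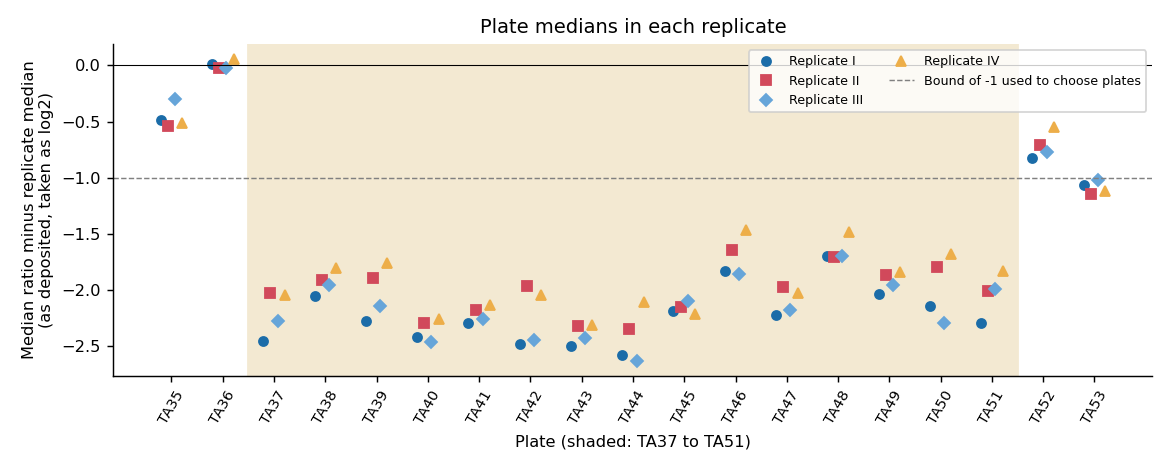
Median ratio of each plate from TA35 to TA53 (vertical axis, minus the replicate median, taken as log2), with 1 point for each of the 4 replicates; the shaded plates TA37 to TA51 and the dashed bound of -1 are marked. All 60 points of the shaded plates lie under the bound, with TA48 and TA46 nearest to it, and TA36 and TA52 lie above it.

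Plate borders are no borders of the profile. The low ratio began inside TA36, in the step between TA36G05 and TA36G06. TA36G05 had 0.77, 0.90, 0.78 and 0.91 in I to IV, and TA36G06 had -1.82, -1.53, -1.46 and -1.32. From TA36G06 to TA36H12, 19 probes had medians of -2.22, -2.21, -2.18 and -2.24, close to those of the stretch itself, although the rule left them out. The 77 probes of TA36 before the step were at 0.30 ± 0.08 (SD, n = 4), with 30 above by more than 0.5 and 5 below. This step was singled out after the values were seen. As fixed in the design, the first 12 probes of TA37 had a median of -2.17 ± 0.17, against -1.97 ± 0.04 for the 12 before them.

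The far end showed no step between TA51 and TA52. The last 12 probes of TA51 had medians of -1.37, -1.10, -1.25 and -1.04, against -1.44, -1.0, -1.67 and -0.99 for the first 12 of TA52. These ranges overlap, so no edge shows between the plates. The last 3 probes, TA51H10, TA51H11 and TA51H12, had mean ratios of -1.46, -1.04 and -1.29, and the next 3, TA52A01, TA52A02 and TA52A03, had -1.17, -1.12 and -1.24. Over TA52A01 to TA52B05 the median stayed at -1.43 ± 0.21 (17 probes), and over the remaining 79 probes of TA52 it was -0.56 ± 0.13. This split of TA52 was chosen after the values were seen, and TA53 was lower again, at -1.09 ± 0.05. At the near end, TA37A01, TA37A02 and TA37A03 had -3.02, -0.86 and -3.98, after -0.25, -2.44 and -0.56 at TA36H10, TA36H11 and TA36H12. Neighbouring probes there alternated between deep and shallow ratios, and did so alike in each replicate: TA37A03 was at -3.87, -3.98, -4.02 and -4.05, and TA37A02 at -0.68, -1.16, -0.76 and -0.83.

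The 5 lowest probes of the stretch lay on 3 plates. TA37C01 was the lowest of all, at -5.27, -5.43, -5.04 and -5.34 in I to IV, a mean of -5.27 ± 0.17 (SD, n = 4). TA41B04 had -4.89, -4.09, -5.09 and -4.21, and its neighbour TA41B03 had -4.49, -4.18, -4.32 and -4.18. In this pair I and III were the lower replicates. TA37B01 was at -3.95, -4.34, -3.93 and -4.31, and TA45A01 at -4.20, -3.97, -4.11 and -3.86. Each of the 5 lay under the 5th percentile of the stretch in every replicate, which follows largely from picking them as the lowest by mean. The lowest probe of the other plates had a mean between -3.78 (TA48B04) and -3.06 (TA38A10), while TA37 and TA41 reached to -5.27 and -4.57. The depth of the lowest probe thus differed between plates.

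Most of the low probes lay in long runs. The 1195 probes below by more than 0.5 formed 99 runs of consecutive wells, 29 of them of 10 probes or more, which held 946 probes (79.2%). With 89.0% of members called below, long runs would arise without any grouping, and runs on other plates were not counted. Some runs end only at a well that is unlisted or has no value, such as TA49E05. The longest ran from TA43A08 to TA44B03 with 104 probes, at mean ratios of -2.47, -2.27, -2.45 and -2.29 in I to IV. It includes the whole of TA43 from row A well 08 on, and its highest probe, TA43D12, was at -0.73 ± 0.20. Next came TA46H10 to TA47G09, with 84 probes at -2.47, -2.27, -2.40 and -2.32, and TA41F10 to TA42D11, with 74 probes at -2.53, -2.27, -2.49 and -2.24. In each of these 3 runs I was the lowest replicate and III the next, and II and IV were higher in varying order. TA40, TA42, TA43, TA45 and TA46 had 0 probes with a mean above 0; their highest probes were TA40B06 (-0.16), TA42G01 (-0.11), TA43D12 (-0.73), TA45H08 (-0.42) and TA46B03 (-0.04).

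Exceptions to the low ratio were few. A mean above 0 was found at 56 members (4.17%, against 50.3% of all probes), and 46 of them lay on TA37, TA38, TA39, TA41 and TA48. They fell into 32 runs of consecutive wells, 21 of them a single probe and the longest of 6 probes. A run also ends where the next well is not listed. Of the 56, 14 lay from TA38E03 to TA39H12, where 54 of 142 wells are listed, so runs there can be cut short by missing wells. All 15 probes above by more than 0.5 lay on TA37 (4), TA38 (2), TA41 (4) and TA48 (5), in 11 runs of which 8 were single probes. Active genes are known to lie scattered in transposon-rich chromatin; whether a gene lies under these probes was not tested. The stretches described next were picked after their values were seen.

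On TA41, 13 consecutive probes from TA41B07 to TA41C07 had medians of 0.54, 0.48, 0.51 and 0.44, a mean of 0.49 ± 0.04 (SD, n = 4), above 0 in all 4 replicates. TA41B10 was the highest probe of the whole stretch, at 1.70, 2.01, 1.69 and 2.11, and TA41C06 followed at 1.93, 1.91, 1.74 and 1.91. These neighbours in the order overlap. In between, the ratio returned below 0: TA41B11 was at -1.44, -1.47, -1.41 and -1.42, and TA41C01 at -1.19, -1.63, -1.24 and -1.76. The stretch thus has 2 peaks, TA41B07 to TA41B10 and TA41C03 to TA41C07, with mean ratios of 1.07 ± 0.14 over 4 probes and 0.81 ± 0.11 over 5. It begins 3 wells after TA41B04, one of the lowest probes, and it ends at TA41C08 with -1.06 ± 0.23.

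On TA37, the high probes were sharply cut from their neighbours. TA37B03 had 0.90, 0.78, 0.90 and 0.88 and TA37B04 had 0.97, 0.87, 0.94 and 0.76, directly after TA37B02 at -3.03, -2.48, -2.70 and -2.88. TA37B09 reached 0.79, 0.89, 0.91 and 0.94, with values near 0 between. TA37C08 was at 0.76, 1.06, 0.99 and 1.18, after TA37C07 at -2.90, -3.25, -2.68 and -3.21. That step of 4.01 ± 0.40 was the largest between neighbours in the stretch; the next were -3.66 ± 0.86 from TA48C10 to TA48C11 and 3.64 ± 0.28 from TA37B02 to TA37B03. Over all 1304 pairs of neighbouring wells the median absolute step was 0.54, and 55 exceeded 2.

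A further site spans the border of TA47 and TA48. The 24 probes from TA47G10 to TA48A09 had a median of -0.07 ± 0.02, with 12 means above 0 and 7 probes below by more than 0.5. TA47H10, the highest probe of TA47, was at 0.87, 0.28, 0.80 and 0.11, so that I and III were higher than II and IV, opposite to the order of the stretch as a whole. TA48A06 had 1.0, 0.42, 1.02 and 1.01, TA48A07 had 1.03, 0.53, 1.16 and 0.88, and TA48A08 had 0.95, 0.56, 1.0 and 1.13. Replicate II was the lowest at all 3.

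Farther along TA48 a short peak followed. TA48C09 was at 1.62, 1.33, 1.62 and 1.85 and TA48C10 at 1.01, 2.06, 1.38 and 2.70, before TA48C11 at -1.71, -2.07, -1.83 and -1.91. The replicates of TA48C10 spread over more than those of TA48C09, with SDs of 0.75 and 0.21. On TA38, TA38G03 had 1.60, 1.51, 1.33 and 1.69 and TA38H12 had 1.26, 1.10, 1.39 and 1.13. On the other plates the highest probe did not pass the distance of 0.5; examples are TA39A03 at 0.63 ± 0.24, TA51D07 at 0.44 ± 0.07, TA44B04 at 0.14 ± 0.36, TA50B09 at 0.13 ± 0.23 and TA49A06 at 0.08 ± 0.25. The sign of each of the last 3 differed between replicates.

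**Figure D3:**
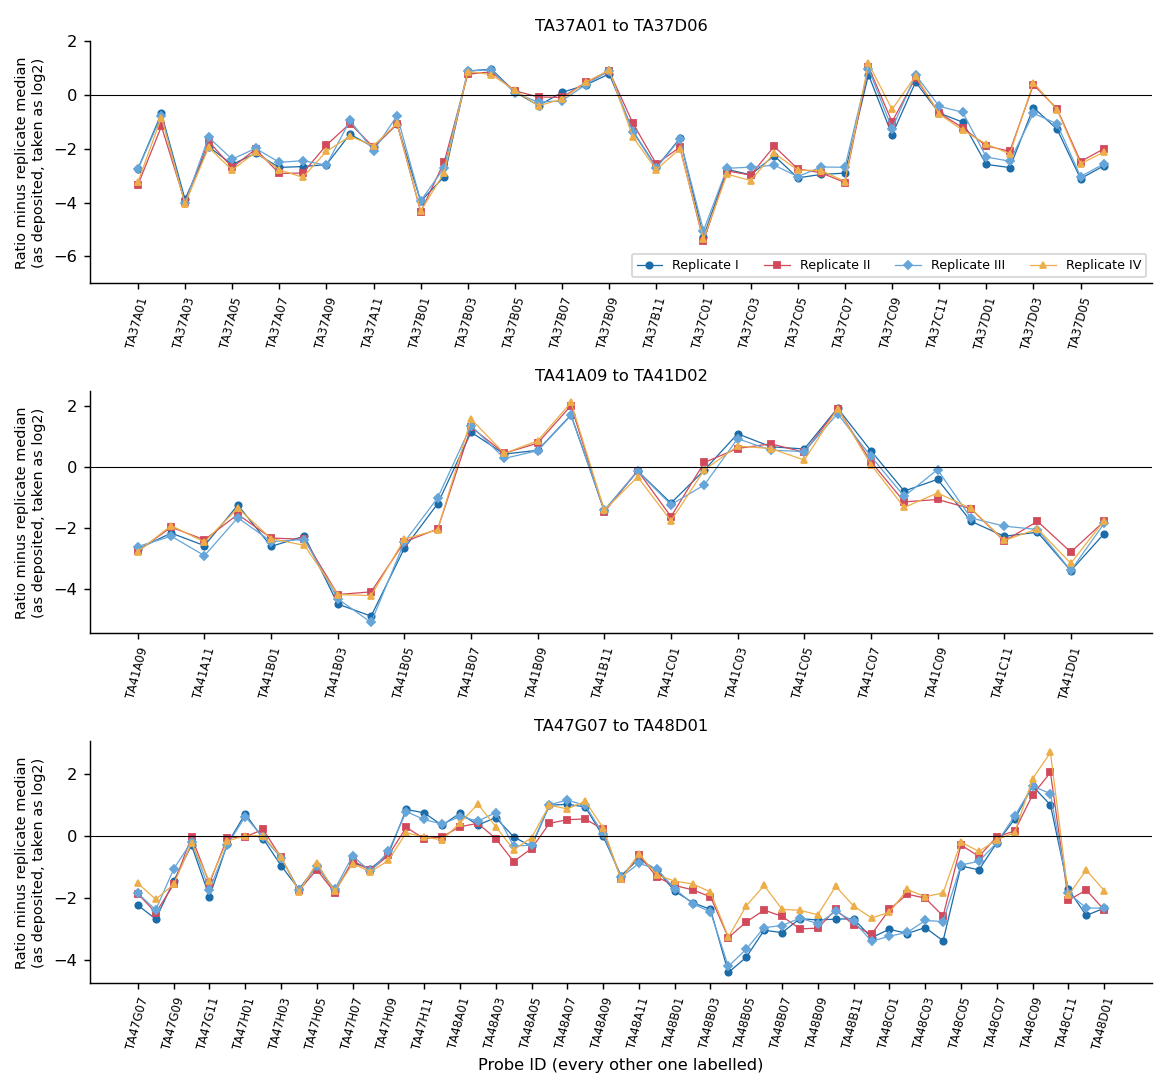
Ratio of each probe (vertical axis, minus the replicate median, taken as log2) in replicates I to IV against probe ID for TA37A01 to TA37D06 (top), TA41A09 to TA41D02 (middle) and TA47G07 to TA48D01 (bottom). The 4 lines run together through high probes such as TA41B10 (mean 1.88) and TA37C08 (mean 1.0) and through low ones such as TA37C01 (mean -5.27).

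The table lists 1352 IDs for these plates out of 1440 wells, and 10 of the listed IDs (0.740%) have no value, 5 of them on TA50; on all other TA, TB and TC plates 2.27% of listed IDs have none. The 88 unlisted wells lie in a single block: TA38 lists 62 IDs and TA39 lists 42, and every other plate lists 96. Up to TA38E02 all wells are listed, and from TA38E03 to TA39H12 only 54 of 142 are. Among the 53 valued probes of that thinned block 14 (26.4%) had a mean above 0, against 42 of 1289 (3.26%) in the remainder of the stretch. Its median was -1.82, -1.49, -1.79 and -1.33 in I to IV, a mean of -1.61 ± 0.24, against -2.11 ± 0.15 for TA40 to TA51. Each replicate was thus less low in the thinned block. The bounds of the block were set after the values were seen, and what set the unlisted wells apart was not tested.

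Medians by row and by well column of the plates also varied. By row they ran from -2.35 ± 0.17 in row D to -1.85 ± 0.13 in row H. By well column they ran from -2.35 ± 0.14 in column 01 to -1.92 ± 0.17 in column 07. Row H was above row D in each replicate, at -1.94, -1.73, -1.99 and -1.75 in I to IV, against -2.46, -2.27, -2.53 and -2.15 in row D. These medians rest on 165 and 176 probes, and what set the rows apart was not tested. Rows D and H are the extremes, picked by their values. The replicates measure the same probes, so their SDs do not measure the spread between probes. A row is also a run of wells in ID order, so plate position and ID order cannot be told apart. Rows of other plates were not compared.

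The spread of ratios inside the stretch was compared with that of other plates. Its interquartile range was 1.31, 1.22, 1.24 and 1.26 in I to IV, a mean of 1.26 ± 0.04 (SD, n = 4), against 1.87 ± 0.05 on TA21 to TA30, the other long low block of the TA series, and 1.17 ± 0.03 on TC17 to TC30, a low series of the TC plates. Over all TB plates it was 1.44 on average. The difference from TA21 to TA30 was -0.62 ± 0.03 and that from TC17 to TC30 was 0.08 ± 0.03, each with 1 sign in 4 of 4 replicates. By the SD over probes, the difference from TA21 to TA30 was -0.41 ± 0.01. From TC17 to TC30 it was 0.006 ± 0.023, with the same sign in only 2 of 4 replicates. That SD was 0.98 on average in the stretch and 0.99 on the TB plates. The small differences from TC17 to TC30 and the TB plates thus depend on the measure. The medians of the 3 low sets were close, at -2.10 ± 0.16, -1.99 ± 0.11 and -2.14 ± 0.15, while the 95th percentile was -0.14 ± 0.03 on TA37 to TA51 against 0.98 ± 0.07 on TA21 to TA30 and -0.03 ± 0.08 on TC17 to TC30. By these values the stretch resembled TC17 to TC30 more than TA21 to TA30, which held 13.5% of probes above 0 against its own 4.21% (means of 4 replicates). The same ratios chose the low plates, and an exact two-sided sign-flip test over 4 replicates has a smallest p of 2 in 16 and cannot reach 0.05, so these differences are descriptions.

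**Figure D4:**
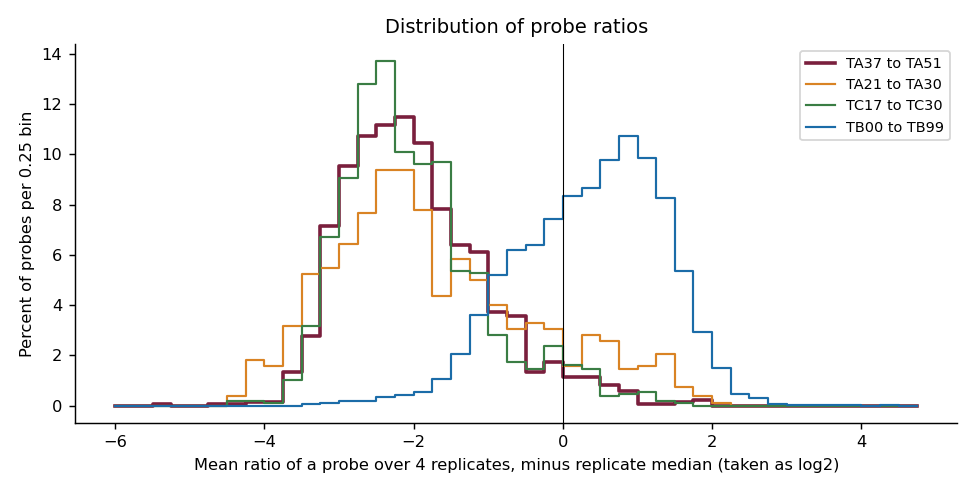
Share of probes (percent per bin of 0.25) by mean ratio over 4 replicates (minus the replicate median, taken as log2) for TA37 to TA51 (heavy line), TA21 to TA30, TC17 to TC30 and the TB plates. TA37 to TA51, TC17 to TC30 and TA21 to TA30 each have their peak between -2.5 and -2. TA21 to TA30 has a longer upper tail, and the TB plates lie mostly above 0.

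Likeness between neighbours was modest and fell with distance up to 10 wells. Across 1304 pairs of probes 1 well apart the Pearson correlation was 0.506, 0.491, 0.499 and 0.484 in I to IV; it was 0.354 on average at 2 wells, 0.179 at 5, 0.044 at 10 and 0.091 at 20. All pairs of a replicate share its hybridisation, so no p is given. At 1 well the correlation was 0.135 ± 0.029 lower than on TA21 to TA30 and 0.208 ± 0.014 lower than on plates TA52 to TA63, and it was 0.083 lower than on the TB plates, each in 4 of 4 replicates. From TC17 to TC30 it differed by -0.011 ± 0.019, within the spread between replicates. At 10 wells it was lower than in each of these 4 sets, by 0.082 ± 0.006 to 0.148 ± 0.013. At 2 and 5 wells it was lower than on TA21 to TA30, TC17 to TC30 and TA52 to TA63. From the TB plates it differed there by 0.004 ± 0.015 and 0.011 ± 0.010. At 20 wells it was 0.043 ± 0.015 higher than on TA21 to TA30 and 0.029 ± 0.006 higher than on the TB plates. It differed there by -0.017 ± 0.010 from TC17 to TC30 and by -0.005 ± 0.007 from TA52 to TA63. A narrower range of ratios can lower a correlation, and the sets differ in range. The interquartile range was 1.26 in the stretch. It was 1.87 on TA21 to TA30, 1.74 on TA52 to TA63, 1.44 on the TB plates and 1.17 on TC17 to TC30. Whether the range goes with these differences was not tested.

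**Figure D5:**
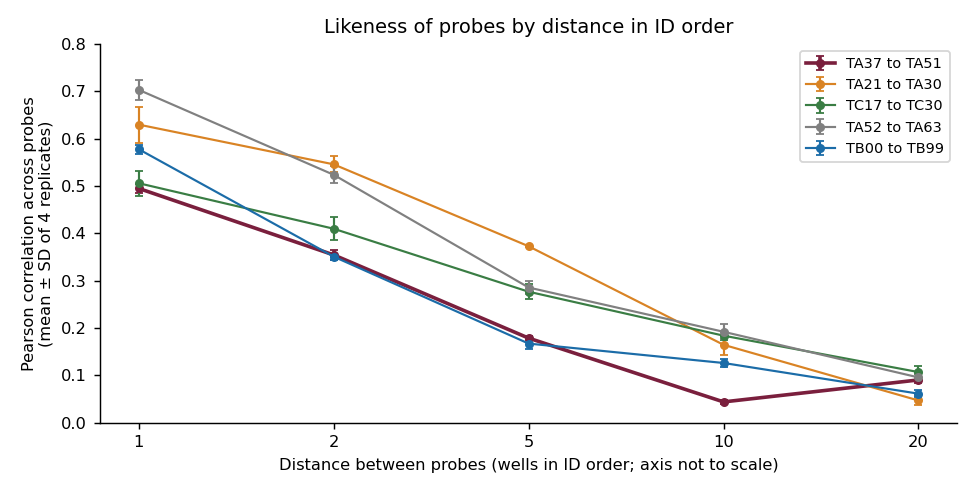
Pearson correlation between probes 1, 2, 5, 10 and 20 wells apart in ID order (horizontal axis, not to scale), as mean and SD of 4 replicates, for TA37 to TA51 (heavy line) and 4 other sets of plates. TA37 to TA51 begins at 0.495, next to TC17 to TC30 at 0.506, and has the lowest value of the 5 sets at 10 wells.

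The rule did not use the spread between replicates, but this spread is not free of the level. The columns differ in width and were centred but not scaled, so a probe far from 0 can have a larger SD. The SD of a member over 4 replicates had a median of 0.21 (quartiles 0.13 and 0.31), against 0.20 (0.13 and 0.30) over the 19953 other probes, and it exceeded 0.5 at 81 members (6.04%), against 5.61% of the others. The medians of this SD were 0.206 on TA37 to TA51, 0.216 on TA21 to TA30 and 0.214 on TC17 to TC30, against 0.193 on TA52 to TA63 and 0.194 on the TB plates. The SD was thus slightly larger in the 3 low sets, and whether it goes with the level was not tested. After quantile normalization its median on TA37 to TA51 was 0.183, with the other sets not compared in that way here. Across the probes of the stretch, I correlated with III at 0.977, II with IV at 0.973, and the remaining pairs at 0.907 to 0.926. The median difference of I minus II was -0.20 and of III minus IV -0.19, against -0.03 for I minus III and -0.02 for II minus IV.

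Members with the largest SD followed the same pairs. TA42H03 had -2.64, -0.71, -2.51 and -0.73 in I to IV, an SD of 1.07, between TA42H02 with -2.63, -1.29, -2.56 and -1.34 and TA42H04 with -3.13, -2.54, -3.17 and -2.48. TA46E03 had -4.11, -2.52, -4.14 and -2.40, and its neighbour TA46E04 had -3.32, -2.12, -3.41 and -1.81. In these cases I and III were the lower replicates and neighbouring probes moved together. The same order held at the deep end of TA48, where TA48B04 had -4.39, -3.27, -4.20 and -3.25 and TA48B05 had -3.90, -2.76, -3.64 and -2.25. TA46A09, at -1.70, -0.55, -1.63 and 0.27, was the only one of the 3 named for their SD to reach above 0 in any replicate.

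The labels allow a single comparison of replicates: some numbers in the titles are shared by I with II, and others by III with IV. What these numbers stand for is not said. In limma's test of III and IV minus I and II, 0 of 1342 members passed an adjusted p of 0.05, as did 0.0% of all 21295 probes, and 3 members (0.224%) passed an unadjusted p of 0.05, where 0.131% of all probes did. These were TA40F01, TA41F06 and TA47A05, higher in III and IV by 0.63, 0.57 and 0.59 with limma SEs of 0.20, 0.20 and 0.22 (adjusted p = 1.0 for each, named after their values were seen). The median difference over the members was 0.03, with 5th and 95th percentiles of -0.20 and 0.29. Since this comparison crosses the pairs that resemble each other, their difference enters its error, with a median SE of 0.23, and the count of 0 does not show that the sets are alike.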

How the data were processed

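Each of 4 replicates was a dye swap of IP and input DNA. The authors deposited log ratios, taken here as log2; their background correction, normalization, logarithm base and direction were not given in the sources used here. Of 21800 IDs, 21295 had values in every column. Columns of a swap differed at 0 probes and were averaged. The median of each replicate was subtracted, with no loess or quantile step. Tests used limma 3.58.1 in R 4.3.3 (lmFit, eBayes, treat at 0.5; Benjamini-Hochberg over 21295 probes). Of these, lmFit and eBayes were also run on simulated data with independent replicates. That run does not show how the tests behave on replicates that are alike in pairs. Other calculations used pandas 2.3.3 and numpy 2.4.6 in Python 3.11.15. Runs and pairs of neighbours required consecutive wells. Without scanner signals, precision was limited by the 4 replicates. The members, lists and tests were chosen with earlier results of these data known. Probes were named by rule: the 5 lowest and 5 highest, the first and last 3 with 3 outside each end, the 3 with the largest SD, the ends of the 3 longest runs each way, the 3 largest steps, the extremes of each plate, and the 2 largest differences each way between title sets (none passed). Probes flanking these, and the stretches on TA36, TA37, TA38, TA39, TA41, TA47, TA48 and TA52, were chosen after their values were seen. Alternatives were centring, quantile normalization, title numbers as a block or term, thresholds, and leaving out replicates or plates.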

Additional observations from a re-analysis of the deposited data

Results flagged for a closer look

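Of 104 values with 4 replicates each that were screened, 5 had a replicate standing apart from the other 3 by Dixon's criterion at 95%; chance flags about 1 in 20. The mean of TA48A06 was 0.86, with replicate II at 0.42 and the others between 1.0 and 1.02. Probe TA41C06, at a mean of 1.87, had replicate III at 1.74 and the others between 1.91 and 1.93. For TA37B03, at a mean of 0.86, replicate II was at 0.78 and the others between 0.88 and 0.90. In TA47B11, the lowest probe of its plate at a mean of -3.60, replicate I was at -3.92 and the others between -3.52 and -3.46. The median of plate TA48, at a mean of -1.64, had replicate IV at -1.48 and the others between -1.70 and -1.69. No replicate stood apart in more than 2 of these.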

How the results depend on the processing

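The place of 0 mattered most. As deposited, 0 lies on average 0.50 above the median probe (whose mean is -0.50), and the mode lies 0.60 above it, so these settings lower every level. Uncentred, the median of the stretch was -2.60, that of the 12 probes before it -2.47, of its first 12 -2.67, of its last 12 -1.70 and of the 12 after it -1.78; centred on the mode they were -2.70, -2.57, -2.76, -1.79 and -1.87. The counts above were then 14 and 12 in place of 39, and 4 and 5 in place of 15 at a distance over 0.5. At a distance over 1, 6 were left. These settings move 0 for every probe or raise the bound for all. Shares over all probes at them are not given here, so the fall is no result about the members. With means over probes, the 12 before stood at -1.75 and the last 12 at -1.36. Centred on the mode, TA44B04 (-0.45), TA47H10 (-0.082), TA49A06 (-0.52), TA50B09 (-0.46) and TA51D07 (-0.16) turned below 0, as did TA44B04 (-0.36), TA49A06 (-0.42), TA50B09 (-0.37) and TA51D07 (-0.07) uncentred.

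Without TA37 and TA51 the neighbour correlation was 0.512, and its difference was 0.0066 from TC17 to TC30 (the sign turned), -0.191 from TA52 to TA63 and -0.065 from the TB plates; the difference of the interquartile range from TC17 to TC30 was 0.056. By Spearman the correlation was 0.438, with differences of -0.251 from TA52 to TA63 and -0.130 from the TB plates. Without TA38 and TA39, a choice made after seeing the data, as was adding the 19 probes of TA36, the correlation was 0.483 and its difference from the TB plates -0.094; quantile normalization gave -0.084 there. With any 1 replicate left out, 1257 to 1260 were below and 34 to 40 above, 1173 to 1199 and 13 to 15 at a distance over 0.5. These are counts of members, and shares over all probes are not given here for these settings either. The median was then -2.15 to -2.05, and 0 probes differed between title sets. As a random block the title sets had a correlation of -0.75, which narrows the errors, so that setting says little. Quantile normalization left all 15 plate medians within their SD. Apart from the placement of 0, the cause was not tested. No paired comparison of groups was possible because the series has 1 group, while sets of plates were compared within each replicate.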

Other observations

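Unlisted wells were not always accompanied by a larger share of probes above 0. Plates TA22 and TA29 are the other TA plates with fewer than 90 listed IDs, at 60 and 77, and lie in the low block TA21 to TA30. In TA22, 2 of 60 probes (3.33%) had a mean above 0, and in TA29 15 of 77 (19.5%) did, against 13.4% of the 686 probes of the other plates of that block. These plates were picked after the values of TA38 and TA39 had been seen.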
